A study of Saccharomyces cerevisiae with 144 samples.

Results

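The longest counted genes of budding yeast were examined in a SLAM-seq study of the BET proteins Bdf1 and Bdf2. A gene was included when the region over which its reads were counted was at least 4500 bases long and it had a mean of at least 20 reads over the 6 DMSO libraries of the WT strain. Of the 6465 counted regions, 215 were that long, of which 27 had too few reads and 8 were left out by name, so that 180 genes remained. Each of these regions is the annotated gene, introns included, plus 250 bases past its 3′ end. The rule used length and total reads in one condition, and none of the labeled reads or treatments.

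The 180 genes fall into 4 classes that are made by different machinery. The class of 142 nuclear protein-coding genes, with regions of 4507 to 14983 bases (median 5179), holds the giant enzymes and scaffolds of the cell, such as the PI3-kinase-like kinases, the Ras regulators, dynein and the fatty acid synthases. The class of 28 retrotransposon genes holds the gag-pol reading frames of Ty1 (17), Ty2 (8), Ty3 (2) and Ty4 (1). Both of these classes are transcribed by RNA polymerase II (Pol II). The class of 8 mitochondrial regions consists of COX1 with its intron-encoded frames AI2, AI3, AI4 and AI5_ALPHA, COB with its intron-encoded frame BI4, and the large ribosomal RNA gene 21S_RRNA, all of which are transcribed inside the organelle by a dedicated single-subunit polymerase. The last class is RDN37-1 and RDN37-2, a pair of annotated copies of the 35S ribosomal RNA precursor, which RNA polymerase I makes in the nucleolus.

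Bdf1 and its paralog Bdf2 bind acetylated histone tails through paired bromodomains and are associated with the general factor TFIID at Pol II promoters. Their extraterminal (ET) domain binds partner proteins. They have no known part in transcription by the mitochondrial polymerase.

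The study grew 23 strains in YPD medium and treated each for 25 min with 1 mM 3-indoleacetic acid (IAA) or with its solvent DMSO, then for 4 min with 5 mM 4-thiouracil, before 3′ mRNA sequencing. All strains express the auxin receptor OsTIR1 from the GPD1 promoter and carry auxin-inducible degron (AID) tags on endogenous Bdf1 and Bdf2, so IAA depletes both proteins in every strain. Bdf1/2-AID is the parent with these tags alone. Every other strain also expresses a BDF1 copy from the TRP1 locus under the promoter and 3′ UTR of BDF1, which is unmodified in WT, lacks the ET domain in ΔET, has 4 conserved acidic ET residues changed to alanine in mET(4), lacks both bromodomains in ΔBD1/2 and has both of them mutated in mBD1/2. ΔCPS lacks the C-terminal phosphorylation sites, ΔNPS/CPS lacks the N- and C-terminal sites, and mNPS/CPS has both sets mutated. Values of further strains are used in places. The BDF1 copy lacks the first bromodomain in ΔBD1, lacks the second in ΔBD2 and has the first mutated in mBD1. It has 1 acidic ET residue changed to alanine in mET(1), lacks motif B and the basic interaction domain in ΔB/BID, and has truncated disordered regions in ΔIDRs. The remaining strains enter only ranges and medians over strains. Their copy has the second bromodomain mutated in mBD2 and a pair of acidic ET residues changed in mET(2). It lacks motif B in ΔB, the basic interaction domain in ΔBID and the N-terminal sites in ΔNPS. The N-terminal sites are mutated in mNPS and the C-terminal sites in mCPS. By its name, pNPS/CPS carries changes that mimic phosphorylation at both sets. There were 6 WT libraries in each treatment, named A to F, and 3 libraries, A to C, in each treatment of every other strain, which the methods describe as biological replicates. Because the copy is present at all times, a variant is seen together with the tagged proteins in DMSO and without them in IAA.

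Libraries held 4089393 to 21384793 reads (median 8054872) and 34354 to 998627 T>C reads. The T>C reads carry at least 2 T>C conversions and are taken to stand for newly made RNA. Every library examined was labeled, so T>C reads that arise without labeling were not measured. Values are T>C reads per 1000000 reads of the library (T>C rpm) unless stated, and total reads on the same scale are given as rpm. All log2 changes compare these values between groups with edgeR (quasi-likelihood), and a gene passed at a Benjamini-Hochberg adjusted p under 0.05 over all genes tested. Of the 180 genes, 162 had a mean of at least 5 T>C reads over all libraries and were tested among 5014 genes. The 18 that were not tested are 13 Ty frames and the nuclear genes FKS3, FIG2, ATG2, FLO1 and CAT8. For 106 genes no library was without T>C reads. No external standard enters the counts, so a change is relative to the whole library, and fewer cells or less RNA per cell cannot be told apart.

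A set of 18 libraries stood apart from the rest in composition. In WT A to C, mET(4) and mBD1/2, RPL41A, a short ribosomal protein gene, took at least 8.64% of all reads, against at most 6.10% in the other libraries. The library numbers of these 18 are consecutive, with no other library among them. WT D to F have lower numbers, and libraries of other strains lie between. WT A to C are thus the WT libraries numbered together with mET(4) and mBD1/2. T>C shares differed along the same line. Of the reads of SPT6, which encodes a histone chaperone that travels with elongating Pol II, 11.7% to 15.8% were T>C reads in WT A to C and 3.40% to 4.94% in WT D to F. REA1, the longest region of all, had T>C shares of 10.3% to 16.9% in WT A to C and 3.56% to 5.69% in WT D to F. Comparisons with WT are therefore also given against each set of 3 WT libraries, and the part of this difference in the results was not tested. All comparisons with WT in IAA use the same 6 WT libraries and are not independent of each other.

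The members near the limits of the rule show how it divides the genes. Just inside the length limit were SMC4 (4507 bases), SSN2 (4513 bases) and TRM732 (4513 bases). Just inside the read limit were 3 Ty frames, YJR029W with a mean of 28.0 reads, YDR098C-B with 30.8 and YDR034C-D with 32.0. Just outside it were YGR161C-D with 16.3, YML045W with 15.5 and YPL257W-B with 14.0 reads. All of these low genes are Ty frames with near-identical copies elsewhere.

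Near-identical copies make the Ty and ribosomal values uncertain, because the counting can divide or discard their reads. The median share of reads that map to several places was 10.4% over the 28 Ty frames and reached 92.6%, and it was over 5% in 14 of them. For the nuclear coding genes this share was at most 3.39%, with a median of 0.206%. RDN37-1 (XII:451325-458432) and RDN37-2 (XII:460462-467569, build R64) are identical repeats 7108 bases long, so their values are parts of 1 signal. The mitochondrial regions overlap: COX1 (MT:13818-26951) contains 4 other members, and COB (MT:36540-43897) contains BI4.

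T>C reads made up a lower share of all reads in the long nuclear genes than in genes of middle length. In Bdf1/2-AID on IAA the median T>C share over genes was 3.33% for regions under 1000 bases, 5.29% from there to 2000, 6.30% from 2000 to 3000, 5.03% from 3000 to 4500 and 3.95% for the 137 long nuclear genes (means over 3 libraries), and in Bdf1/2-AID on DMSO these 5 classes had 6.6%, 9.91%, 11.6%, 10.1% and 8.25%. In WT they had 6.70%, 9.24%, 10.5%, 9.47% and 8.48% on IAA and 8.37%, 11.7%, 13.2%, 11.9% and 10.8% on DMSO. The share thus peaked between 2000 and 3000 bases in all 4 groups.

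Within single libraries of these 4 groups, Spearman's rho between region length and T>C share was −0.31 to −0.034 across the 137 long nuclear genes, and 0.14 to 0.22 across 4821 genes of all lengths. These are descriptions across genes of one library, which share depth and base composition and are not independent. The T>C share needs no scaling between libraries, since both counts come from the same gene and library.

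After degradation of Bdf1/2 in the parent strain, new RNA fell in 125 of 137 long nuclear genes, while few of the Ty and mitochondrial members passed the test. On IAA against DMSO, 129 of the 162 long genes were lower, and none (0) rose. The background is 84.3% of all genes lower and 0.319% higher. Without adjustment, 130 were lower and 1 was higher at p under 0.05, and DESeq2 called 122 lower and 0 higher. By class, 125 of 137 nuclear genes, 2 of 15 Ty frames, 0 of 8 mitochondrial regions and 2 of 2 ribosomal copies were lower. The median log2 change was −1.89 for the nuclear genes, −0.19 for Ty, −0.33 for the mitochondrial and −0.29 for the ribosomal members, against −1.86 for all genes.

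The long nuclear genes lay close to shorter ones in this comparison. Of genes with regions under 1000 bases, 87.2% were lower, with a median log2 change of −1.94. The classes from 1000 to 2000, from 2000 to 3000 and from 3000 to 4500 bases had 84.5%, 88.6% and 91.2% lower and medians of −1.83, −1.94 and −1.97. The long nuclear genes had 91.2% lower. Their median lay 0.0316 below that of all genes.

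**Figure D1:**
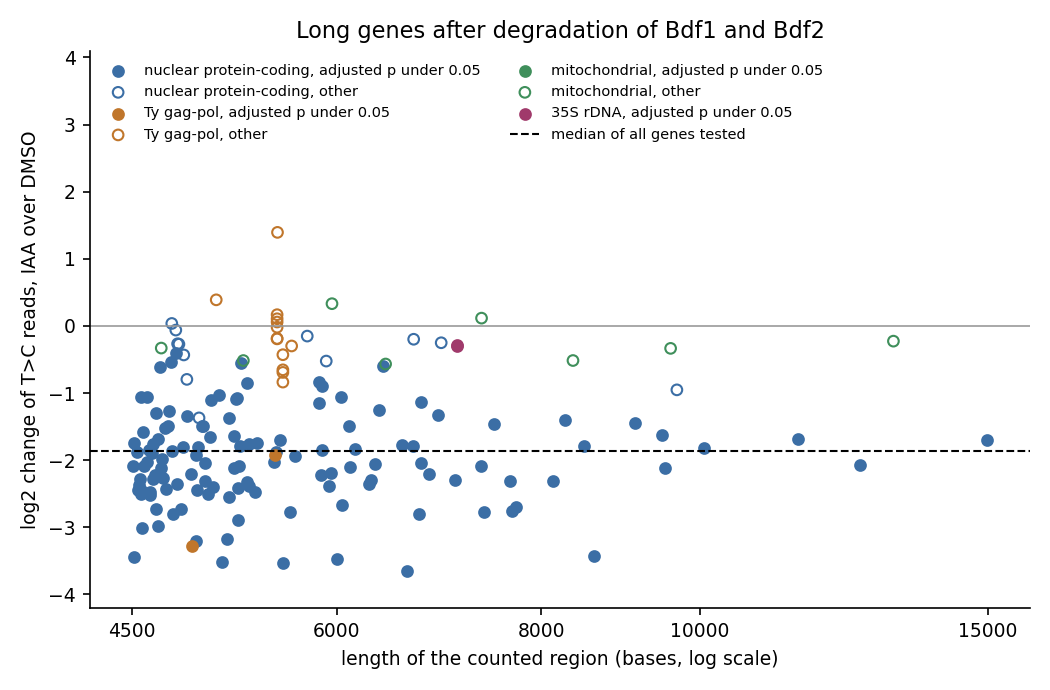
Log2 change in T>C rpm on IAA against DMSO in Bdf1/2-AID, plotted against the length of the counted region in bases (log axis), with 1 point per tested long gene. Filled points passed the test at an adjusted p under 0.05, the classes have their own colors, and the dashed line is the median of all 5014 genes at −1.86. The nuclear genes scatter around the line at every length, while mitochondrial, ribosomal and most Ty members lie above it.

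The size of the changes depended on the scaling, which shifts all genes nearly alike and so cannot test the differences between classes. The median of all genes was −1.86 with library totals, −0.80 with size factors that DESeq2 computed from total reads, −0.91 with TMM and −0.21 with totals of T>C reads. With the size factors, 63 nuclear genes were lower and 8 higher, 2 Ty frames lower and 5 higher, 4 mitochondrial regions higher and 2 ribosomal copies higher, against 35.9% of all genes lower and 8.8% higher. The median changes under that scaling were −0.83 for nuclear genes, and 0.88, 0.74 and 0.78 for Ty, mitochondrial and ribosomal members, so the Ty, mitochondrial and ribosomal classes changed sign with the scaling. Relative to the median of all genes, Ty members were 1.67, mitochondrial members 1.53 and ribosomal members 1.57 higher with library totals. These 3 differences were positive under all 4 scalings, but a common shift of all genes leaves them nearly unchanged, so this is no further support.

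The T>C share of a class, which needs no scaling, was lower on IAA in all 4 classes of Bdf1/2-AID. It was 3.57% ± 0.12 on IAA and 7.0% ± 0.41 on DMSO for the nuclear genes (SD, n = 3 each). It was 2.17% on IAA and 3.65% on DMSO for Ty, 0.138% and 0.210% for the mitochondrial regions, and 0.909% and 1.76% for the ribosomal copies. In WT the nuclear share was 7.63% ± 1.98 on IAA and 9.56% ± 2.63 on DMSO (SD, n = 6 each), with the spread following the 2 sets of libraries. The share thus did not separate the ribosomal copies from the nuclear genes as the log2 changes did. Total reads of the ribosomal copies were higher on IAA, as given below.

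**Figure D2:**
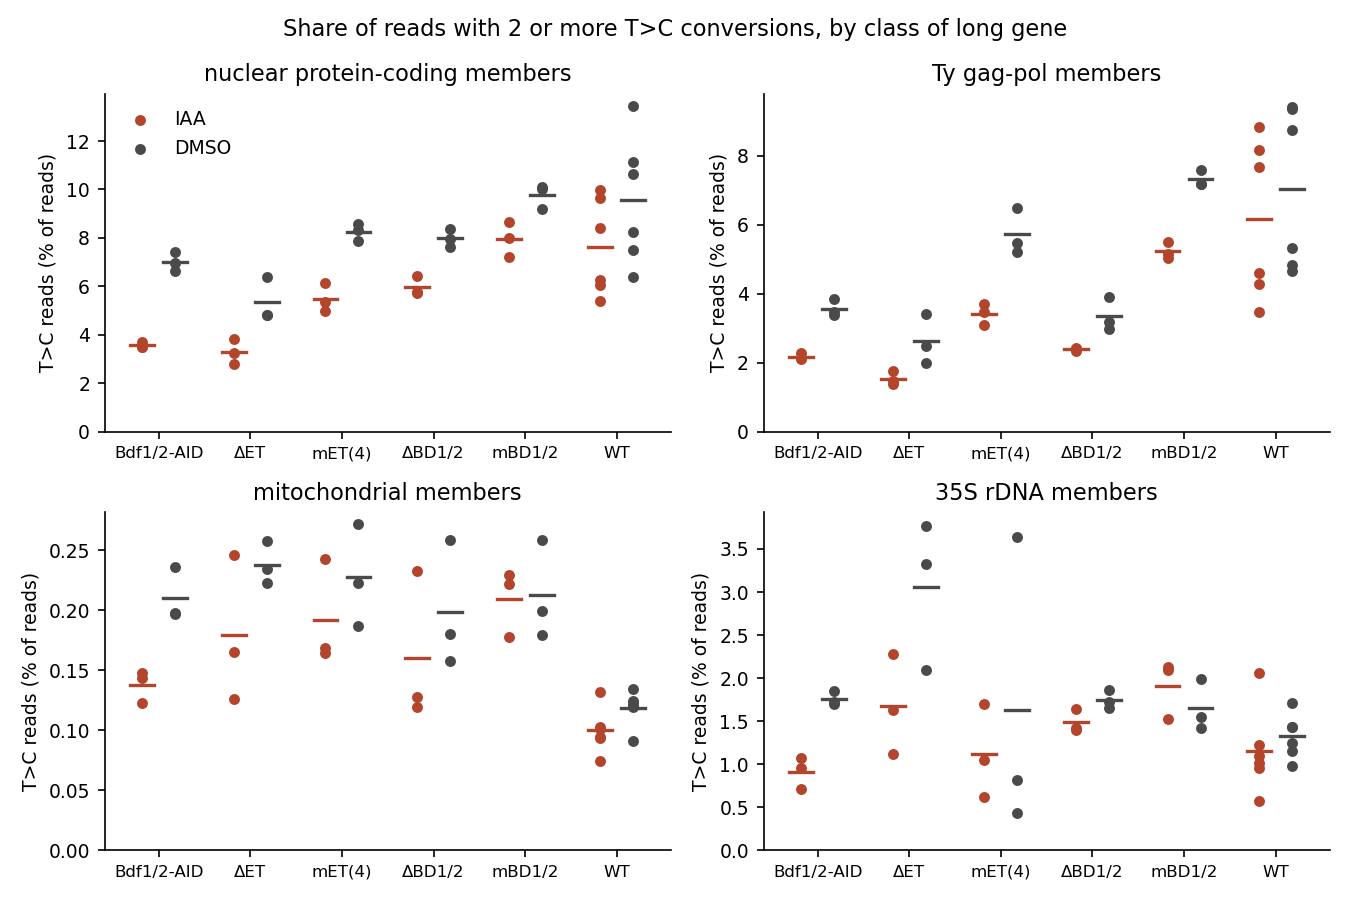
T>C reads as a percentage of all reads, summed over the nuclear, Ty, mitochondrial and 35S ribosomal members, in each library of 6 strains, with IAA left of DMSO. Points are libraries and lines are group means. The nuclear share in Bdf1/2-AID was 3.57% on IAA and 7.0% on DMSO, while WT libraries split into a high and a low set within each treatment.

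The 5 members with the lowest fitted change in Bdf1/2-AID were HFA1, RIM15, ULS1, RIF1 and SSN2. HFA1, the mitochondrial acetyl-CoA carboxylase, had 0.475, 0.177 and 0 T>C rpm on IAA and 2.67, 2.92 and 1.84 on DMSO, a log2 change of −3.66 ± 0.57 (SE, adjusted p = 1.72e-09). ULS1, a Swi2/Snf2 translocase that acts on sumoylated proteins, had 0.158, 0.444 and 0.222 on IAA and 3.15, 4.33 and 3.02 on DMSO (−3.52 ± 0.47, adjusted p = 4.29e-12). RIF1, which binds telomeres and controls the timing of replication origins, had 0.317, 0.177 and 0.222 on IAA and 1.81, 2.83 and 3.52 on DMSO (−3.47 ± 0.54, adjusted p = 2.41e-09). In these genes every IAA library lay below every DMSO library.

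RIM15, a kinase of the nutrient response, and SSN2, a subunit of the Mediator kinase module, had only 2 T>C reads each in the 3 IAA libraries and 27 each in the 3 DMSO libraries. The ratio is 12.9-fold lower for RIM15 and for SSN2, with a 95% exact binomial interval of 3.26 to 112 that covers counting error only. The adjusted p was 0.000144 for RIM15 and 0.000232 for SSN2. RIM15 had 0.158, 0 and 0.111 T>C rpm on IAA and 0.286, 0.973 and 2.18 on DMSO. SSN2 had 0, 0.177 and 0 on IAA and 1.53, 0.884 and 0.168 on DMSO, so for SSN2 the groups overlapped.

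The 5 members at the other end did not pass the test, and none is a nuclear gene. The Ty1 frame YBR012W-B had 0.634, 1.15 and 0.443 T>C rpm on IAA and 0.286, 0.354 and 0.168 on DMSO, a log2 change of 1.39 ± 0.71 (SE, adjusted p = 0.0575). Its groups did not overlap. YDR261C-D had a log2 change of 0.39 (adjusted p = 0.47), YLR227W-B 0.17 (adjusted p = 0.796), BI4 0.33 (adjusted p = 0.522) and COB, the apocytochrome b gene, 0.12 (adjusted p = 0.81). COB had 1.27, 1.15 and 1.44 on IAA and 1.05, 1.42 and 1.01 on DMSO, with overlapping groups.

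The 12 nuclear genes that did not pass were GLT1, DUR12, FAS2, ACC1, GDB1, VPS13, HSL1, HAP1, YCF1, PDR10, PDR12 and PDR15. Of these, 4 are ABC transporters, 2 make fatty acids, 2 work in nitrogen metabolism, GDB1 is the glycogen debranching enzyme and HAP1 is the heme-responsive activator. They were named after their values were seen.

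The role lists below are selections from the long nuclear genes, and they are described by counts and medians. They are not complete, since tested members such as NUP170, UFD4 and POL1 are in none of them. The counts stand against 84.3% of all genes and 91.2% of the long nuclear genes lower, so that a list in which all or nearly all members were lower is near the background, and the medians against −1.86 for all genes. Of 8 genes listed for PI3-kinase-like and lipid kinases, with the TOR complex subunit KOG1 among them, 8 were lower, with a median log2 change of −2.30. TRA1, the shared scaffold of the SAGA and NuA4 coactivators with a region of 11485 bases, had 2.38, 1.33 and 1.55 T>C rpm on IAA and 5.35, 5.04 and 6.04 on DMSO (−1.69, adjusted p = 1.2e-07). TOR1, a growth-controlling kinase, had 0, 0.532 and 0.886 on IAA and 3.73, 1.77 and 2.35 on DMSO (−2.31). TEL1, the ATM-type kinase of the DNA damage and telomere pathways, had 0.317, 0.177 and 0.222 on IAA and 2.67, 2.12 and 3.02 on DMSO (−3.42). No library of these genes on IAA reached the lowest DMSO library. Of the 7 tested genes that encode smaller partners of the TOR complexes, 6 were lower, with a median of −2.22.

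Of 7 genes for DNA replication and chromosome structure, 7 were lower, with a median of −2.81. POL2, the catalytic subunit of DNA polymerase epsilon, had 0.634, 1.33 and 1.11 T>C rpm on IAA and 3.44, 2.65 and 1.84 on DMSO (−1.33, adjusted p = 0.000869). SCC2, the cohesin loader, had 0.951, 0.71 and 0.665 on IAA and 2.67, 1.95 and 1.68 on DMSO (−1.49, adjusted p = 0.00122). The list median lay 0.95 below that of all genes with library totals, a difference that other scalings leave nearly unchanged by their nature. Most of these genes have few T>C reads, so their single values are imprecise.

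Vesicle traffic genes were lower in 8 of 9, with a median of −2.21. LAA1, which works with the AP-1 clathrin adaptor, had 2.38, 3.37 and 2.88 T>C rpm on IAA and 13.2, 13.9 and 17.1 on DMSO (−2.30 ± 0.22, adjusted p = 1.25e-21). USO1, a tether of transport vesicles, had 0.158, 1.24 and 1.44 on IAA and 6.02, 7.61 and 8.05 on DMSO (−2.77). SEC16, which organizes the exit sites of the endoplasmic reticulum, and SEC7, an activator of Arf GTPases, had log2 changes of −2.21 and −2.35. In all 4 genes the groups were separate.

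The genes of nuclear pores, Ras signaling and ubiquitin ligases were near the background. Of the 4 listed pore genes 4 were lower, with a median of −1.80. MLP2, a filament of the nuclear basket, had 3.48, 3.28 and 2.88 T>C rpm on IAA and 15, 16 and 17.6 on DMSO (−2.33, adjusted p = 2.8e-23), and its paralog MLP1 had 3.48, 3.1 and 5.21 on IAA and 16.3, 13.1 and 12.8 on DMSO (−1.84). The 4 Ras pathway genes were all lower, with a median of −1.86. Among them were CDC25, the exchange factor that activates Ras (−1.66), and IRA2 and IRA1, the GTPase-activating proteins that switch it off (−1.62 and −2.12). Of the 2 listed ubiquitin ligases, TOM1 had 1.9, 1.69 and 1.99 on IAA and 7.83, 6.54 and 4.87 on DMSO (−1.82), and UBR1, the ligase of the N-degron pathway, had a log2 change of −1.49. In each of these genes the highest IAA value was under the lowest DMSO value.

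RNA processing and chromatin genes lay close to all genes as well. Of 8 genes listed for RNA processing, decay and translation control, with the proteasome factor ECM29 among them, 8 were lower, with a median of −1.74. REA1 (XII:348756-363738, minus strand), a dynein-like ATPase that remodels pre-60S ribosomal subunits, had 4.59, 3.28 and 4.54 T>C rpm on IAA and 12.4, 15.1 and 11.7 on DMSO (−1.70, adjusted p = 8.01e-14). PRP8, the core of the spliceosome, had 3.33, 3.37 and 3.32 on IAA and 8.88, 9.2 and 9.73 on DMSO (−1.46), and BRR2, its helicase partner, had 0.951, 0.887 and 0.997 on IAA and 7.54, 6.9 and 5.2 on DMSO (−2.81). All 7 listed chromatin and coactivator genes were lower, with a median of −1.78. Among them were MOT1, an ATPase that removes TBP from DNA (−0.83, adjusted p = 6.98e-05), and CDC39, the scaffold of the Ccr4-Not complex (−1.78). SPT6 (VII:720409-725014) had 6.5, 8.25 and 6.42 on IAA and 23, 27.9 and 26.2 on DMSO. Of the other genes for transcription elongation, 18 of 19 were lower, with a median of −1.81.

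All 10 listed genes of glucan synthesis, polarity and the cytoskeleton were lower, with a median of −1.64, against −1.86 for all genes. FKS1, the main glucan synthase, had 9.98, 7.28 and 9.53 T>C rpm on IAA and 19.5, 16.8 and 12.2 on DMSO (−0.90, adjusted p = 2.08e-06). MYO1, the myosin of the cytokinetic ring, had a log2 change of −1.06, MYO2, the myosin of polarized transport, −1.49, and BNI1, a formin that builds actin cables, −2.10. DYN1 (XI:535397-547925, minus strand), the dynein heavy chain with a region of 12529 bases, had 0.475, 0.177 and 0.775 on IAA and 1.53, 2.65 and 1.51 on DMSO (−2.07, adjusted p = 0.000106). Of 7 lipid transfer and flippase genes 6 were lower, with a median of −1.49, including FMP27 (−2.30) and DNF2 (−1.02, adjusted p = 0.0188, which passed in 3 of 6 fits that each left out a library).

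The genes of fatty acid synthesis, nitrogen use and drug transport had the medians nearest to 0. Of 4 fatty acid genes 2 were lower, with a median of −0.56 that was 1.30 above all genes. FAS1, the beta subunit of fatty acid synthase, had 7.92, 6.03 and 6.54 T>C rpm on IAA and 9.55, 10.5 and 10.7 on DMSO (−0.60, adjusted p = 0.00382). FAS2, the alpha subunit, had 1.74, 3.1 and 2.99 on IAA and 4.78, 4.33 and 2.01 on DMSO (−0.52, adjusted p = 0.0807), and ACC1, the cytosolic acetyl-CoA carboxylase, had 8.24, 5.5 and 4.98 on IAA and 7.35, 7.78 and 6.38 on DMSO (−0.25, adjusted p = 0.27). The list is not uniform, since HFA1, the mitochondrial counterpart of ACC1, had the lowest change of all members. Of 11 other genes for fatty acid synthesis and elongation, 10 were lower, with a median of −0.99. The 2 nitrogen genes, GLT1 for glutamate synthase (−0.20, adjusted p = 0.448) and DUR12 for urea amidolyase (−0.15, adjusted p = 0.812), did not pass.

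The 10 ABC transporters stood 1.28 above the median of all genes, with 6 lower and a median of −0.57 that was 0.50 with the size factors. PDR5, the main multidrug pump of the plasma membrane, had 26.3, 22.8 and 24.4 T>C rpm on IAA and 35.5, 28.7 and 32.2 on DMSO (−0.40, adjusted p = 0.00889). SNQ2, another multidrug pump, had 18.7, 18.4 and 15.6 on IAA and 26.8, 24.1 and 25.7 on DMSO (−0.54, adjusted p = 0.000822). YCF1, the vacuolar pump for glutathione conjugates, had a log2 change of −0.27 (adjusted p = 0.269), and its paralog BPT1 had 0.475, 1.51 and 1.33 on IAA and 7.64, 5.92 and 5.87 on DMSO (−2.45, adjusted p = 1.65e-13). The paralogs thus differed, BPT1 lying below and YCF1 above the median of all genes.

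The regulatory DNA of the ABC transporters is shown because some of them moved together in the bromodomain strains described below. Pdr1 and Pdr3, the activators of the multidrug response, bind a short palindromic element called PDRE. Its spellings TCCGCGGA, TCCGTGGA and TCCACGGA were searched on both strands of the 600 bases before the start codon (the first is its own reverse complement and the others are each other's). A match was found in 5 of the 10 ABC transporters, in 4.23% of the 142 long nuclear genes and in 1.97% of all 5901 nuclear coding genes. The long genes with a match were MDS3, PDR10, PDR15, PDR5, SNQ2 and YOR1. The windows below are from the plus strand of the RefSeq genome (build R64), in 5′ to 3′ direction, with the element in capitals and 11 bases on each side.
PDR5 XV:619266-619295: ccgagaaaacgTCCGTGGAgaaccattcgg
PDR5 XV:619338-619367: gcccctctcttTCCGCGGAatcgctcatgc
PDR5 XV:619454-619483: ggactcgtgatTCCGTGGAaaggtcagatc
PDR5 XV:619516-619545: agagaaatgtcTCCGCGGAactcttctacg
PDR15 IV:1278820-1278849: cgcatgctcgtTCCGCGGAgagtctcgagc
SNQ2 IV:465324-465353: tattttaagttTCCGCGGAtgcctttcgat
YOR1 VII:1052412-1052441: taacgcgtggtTCCGTGGAaatagccggaa
PDR10 XV:931385-931414: actataaacgcTCCGTGGAatgcgctttta
PDR10 XV:931454-931483: cgtggctttgtTCCACGGActgataaaggg
The 4 elements of PDR5 lie 313 to 563 bases before its start codon, and the single element of SNQ2 lies 584 bases before its own. PDR5 and PDR10 have several elements, while PDR15, SNQ2 and YOR1 have 1 each. A match is a description of the letters and not evidence of binding.

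The Ty frames did not move as a unit. The 2 that fell were the Ty1 frame YNL054W-B, with 3.48, 1.6 and 1.99 T>C rpm on IAA and 8.4, 7.96 and 9.23 on DMSO (−1.92, adjusted p = 4.65e-12), and YGR109W-B, a Ty3 frame with 3 T>C reads on IAA and 35 on DMSO (11.2-fold lower, 95% interval 3.53 to 56.9 for counting error, adjusted p = 5.38e-05). The other 13 tested frames did not pass. Since their reads are shared with near-identical copies, each value may hold reads of other elements.

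The ribosomal and mitochondrial members had small changes. RDN37-2 had 74, 87.8 and 76.9 T>C rpm on IAA and 95.9, 95.3 and 100 on DMSO (−0.28, adjusted p = 0.0319), and RDN37-1 had a log2 change of −0.30 (adjusted p = 0.0272), and leaving out any of 4 of the 6 libraries ended the calls. COX1, which encodes subunit I of cytochrome c oxidase, had 3.48, 3.81 and 3.43 on IAA and 3.92, 3.8 and 5.2 on DMSO (−0.23, adjusted p = 0.421). 21S_RRNA (MT:58009-62697) had 8.24, 8.61 and 8.31 on IAA and 13.3, 8.93 and 9.23 on DMSO (−0.33, adjusted p = 0.0978). The libraries were 3′ mRNA libraries, which are meant for polyadenylated RNA.

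**Figure D3:**
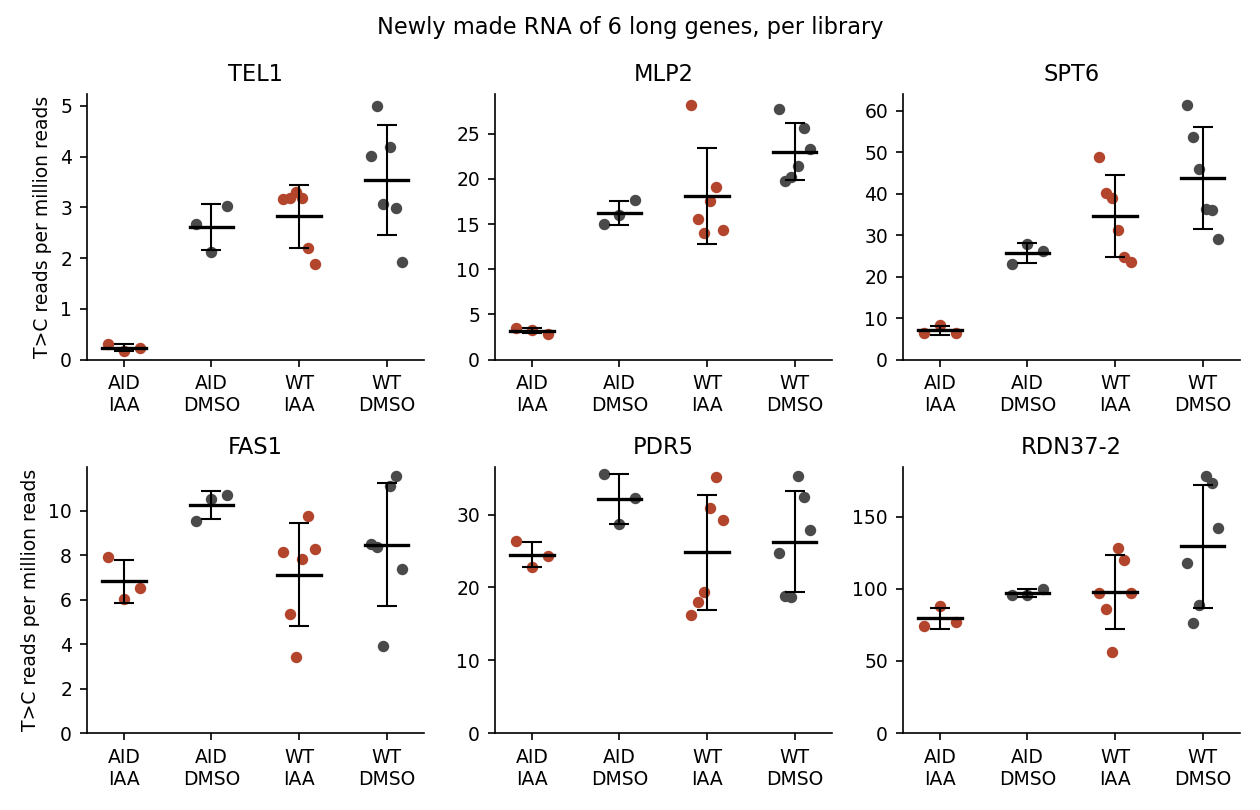
T>C rpm of TEL1, MLP2, SPT6, FAS1, PDR5 and RDN37-2 in each library of Bdf1/2-AID on IAA, Bdf1/2-AID on DMSO, WT on IAA and WT on DMSO. Points are libraries and bars are means ± SD (n = 3 for Bdf1/2-AID and 6 for WT). TEL1, MLP2 and SPT6 show a wide gap between IAA and DMSO in Bdf1/2-AID, FAS1 and PDR5 a small one, and the WT groups overlap.

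The unmodified BDF1 copy was set against its own DMSO control to measure what IAA did where Bdf1 was still made. In WT, 0 of the 162 long genes were lower and 0 higher by edgeR, and p was under 0.05 before adjustment in 38 lower and 1 higher gene. DESeq2 also called 0 in either direction. The background was 0% in both directions, with 716 lower and 3 higher genes at p under 0.05 before adjustment. The median log2 change was −0.42 for the long genes and −0.37 for all genes. It was −0.50 in WT A to C alone and −0.37 in WT D to F alone, with 0 calls in each.

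The letters of the WT libraries were taken to pair IAA with DMSO samples, which the labels do not state. With the letter as a block 53 long genes were lower and 1 higher, against a background of 23% lower and 0.0399% higher. These calls rest on that pairing. PDR12, an exporter of weak organic acids, had 14.5, 6.58, 4.33, 10.8, 6.07 and 6.03 T>C rpm on IAA and 5.55, 2.64, 3.55, 3.86, 2.86 and 4.35 on DMSO in A to F. It was higher on IAA in 6 of 6 pairs, with a log2 change of 1.07 ± 0.29 (adjusted p = 0.32) without the block and 1.02 (adjusted p = 0.000214) with it. IRA2 had 3.32, 4.62, 2.62, 4.95, 3.13 and 2.95 on IAA and 10.8, 8.68, 7.29, 3.38, 6.22 and 5.31 on DMSO, lower in 5 of 6 pairs (−0.96, adjusted p = 0.32, and 0.00103 with the block). TSC11, a subunit of TOR complex 2, had a log2 change of −0.97 (adjusted p = 0.321, and 0.00616 with the block). The Ty frame YPR158C-D, the lowest, had −1.07 (adjusted p = 0.341, and 0.0455 with the block).

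SPT6 shows how far the spread between the sets of WT libraries exceeds the change on IAA. It had 48.8, 40.3, 38.9, 31.3, 24.8 and 23.6 T>C rpm on IAA and 61.4, 53.8, 45.9, 36.4, 36.1 and 29.1 on DMSO in A to F. Each IAA value lay below the DMSO value of its letter, and the groups overlapped. REA1 had 23.8, 18, 15, 14.7, 16.4 and 12.3 on IAA and 37.8, 24.3, 18.2, 24, 20 and 13.8 on DMSO. Its log2 change was −0.46, and that of SPT6 −0.34.

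The change on IAA was then compared between the strains, to ask in which long genes the loss was larger without a BDF1 copy. Of the 162 long genes, 81 had a more negative change in Bdf1/2-AID than in WT and 0 a less negative one (95 and 0 before adjustment), against a background of 50.2% and 0.12%. Of the 81, 80 were nuclear genes and 1 a Ty frame. With the size factors 0 long genes passed, so the count rests on library totals. The median difference was −1.40 for nuclear genes and 0.07 for Ty, 0.17 for mitochondrial and 0.12 for ribosomal members, against −1.45 for all genes.

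The 5 members with the lowest p for this difference were ULS1, MLP2, TEL1, USO1 and SPA2. ULS1 had 5.88, 7.09, 3.65, 4.95, 5.52 and 3.75 T>C rpm in WT on IAA and 9.28, 8.21, 8.16, 9.18, 6.1 and 6.28 in WT on DMSO, and its difference was −2.90 ± 0.50 (SE, adjusted p = 0.000481). MLP2 had 28.2, 15.5, 14, 17.6, 19.1 and 14.3 on IAA and 27.7, 19.8, 20.2, 21.4, 25.6 and 23.3 on DMSO in WT (−1.98, adjusted p = 0.000612). TEL1 had 3.17, 3.19, 3.3, 3.19, 2.21 and 1.88 on IAA and 4.02, 5, 3.07, 4.19, 2.99 and 1.93 on DMSO in WT (−3.10, adjusted p = 0.000617). In WT the IAA and DMSO values of all 3 genes overlapped.

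USO1 had 15.1, 9.35, 6.95, 9.57, 12 and 8.17 T>C rpm on IAA and 12.7, 10.1, 12.2, 15, 13.9 and 10.6 on DMSO in WT (−2.53, adjusted p = 0.000638). SPA2, a scaffold of the polarisome, had 1.43, 1.42 and 1.66 on IAA and 7.16, 6.46 and 7.72 on DMSO in Bdf1/2-AID, and 11.6, 8.02, 6.84, 7.34, 5.52 and 6.57 on IAA and 9.28, 9.43, 6.62, 10.6, 8.83 and 8.57 on DMSO in WT (−2.01, adjusted p = 0.000639). Both genes had overlapping treatments in WT and separate ones in Bdf1/2-AID. By role list, against 50.2% of all genes, 7 vesicle genes (all but MON2 and VPS13), 6 of 8 kinases and 4 of 7 replication genes passed. So did 1 of 4 fatty acid genes, 1 of 10 ABC transporters and 0 nitrogen genes. Of the pore genes all but NUP188 passed, and of the chromatin genes all but TRA1 and MOT1. Of the RNA processing genes all but PRP8, GCN1 and ECM29 passed, and CDC39 and THO2 are in both of these last lists. Differences between lists were not tested. PDR12 had a difference of −1.13 (adjusted p = 0.0606).

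Total reads, which include RNA made before the pulse, had a smaller median change than T>C reads. On IAA in Bdf1/2-AID, 118 of the 180 long genes were lower and 19 higher in rpm, against a background of 76% lower and 5.56% higher among 5643 genes. By class, 116 of 142 nuclear genes were lower and 5 higher, 2 Ty frames lower and 4 higher, 8 mitochondrial regions higher and 2 ribosomal copies higher. The median change was −0.90 for the nuclear genes, which is 0.17 with the size factors, and 0.21, 0.27 and 0.69 for Ty, mitochondrial and ribosomal members, against −1.09 for all genes. The nuclear genes lay 0.19 above the median of all genes.

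TEL1 had 6.5, 7.01 and 8.31 rpm on IAA and 22.7, 20 and 19.3 on DMSO, a log2 change of −1.50 (adjusted p = 1.46e-08). MLP2 had 52.6, 60.7 and 54.7 on IAA and 122, 138 and 140 on DMSO (−1.25). REA1 had 201, 217 and 184 on IAA and 249, 259 and 258 on DMSO (−0.35), and SPT6 404.7, 377 and 372 on IAA and 490, 703 and 723 on DMSO (−0.73, adjusted p = 4.92e-06). All IAA values of these 4 genes lay below their DMSO values, with a wide gap in TEL1 and a narrow one in REA1.

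The 5 nuclear genes with more total reads on IAA were PDR12 (1.16), GLT1 (0.46), FAS2 (0.28), FAS1 (0.27) and ACC1 (0.27 on the log2 scale). PDR12 had 40.1, 39.4 and 36.5 rpm on IAA and 18.3, 17.9 and 14.9 on DMSO (adjusted p = 2.2e-08), while its T>C rpm of 2.22, 1.77 and 2.1 on IAA and 1.91, 2.21 and 2.18 on DMSO did not differ by the test (−0.06, adjusted p = 0.872). FAS1 had 408.2, 392.9 and 389.8 rpm on IAA and 346.1, 343.1 and 295.9 on DMSO (adjusted p = 0.0118). RDN37-2 had 6549, 8660 and 10090 on IAA and 5034, 5265 and 5039 on DMSO (0.72, adjusted p = 2.91e-06). The summed share of library reads was 0.672% on IAA and 0.938% on DMSO for the nuclear members, 1.33% and 1.10% for the mitochondrial members, and 1.57% and 0.971% for the ribosomal ones.

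Without the ET domain, with endogenous Bdf1/2 depleted, most of the long nuclear genes and of the tested Ty frames were lower than in WT. In ΔET against WT on IAA, 135 of 162 long genes were lower and 0 higher (137 and 0 before adjustment, and 135 and 0 by DESeq2), against a background of 78.7% lower and 1.08% higher. The lower genes were 122 nuclear genes, 11 Ty frames and 2 ribosomal copies, and 0 of 8 mitochondrial regions passed. The median change was −1.99 for nuclear, −2.21 for Ty, 0.13 for mitochondrial and −1.16 for ribosomal members (0.62 with totals of T>C reads), against −1.82 for all genes. Against WT A to C alone 127 genes were lower (64.8% of all genes), and against WT D to F alone 139 (87.9% of all genes). The mitochondrial median was −0.29 against A to C and 0.65 against D to F, so its sign depends on the WT libraries. The library numbers of ΔET run on from those of Bdf1/2-AID, mNPS/CPS and ΔCPS, with no WT library among them. The ET deletion and that run of libraries therefore cannot be told apart in the comparison with WT. Against the DMSO libraries of ΔET itself, the median log2 ratio of group means was −1.26 for nuclear members and −1.22 for all genes.

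Against the DMSO libraries of ΔET itself, the Ty members had a median of log2 IAA over DMSO of −0.12, which lay 1.09 above that of all genes, as it lay above it in Bdf1/2-AID. The low Ty values in ΔET were thus seen against WT, a comparison of strains, and not against its own DMSO libraries. YNL054W-B had a log2 change of −3.75 (adjusted p = 9.29e-06) against WT, with −4.48 against WT A to C and −2.22 against WT D to F, and YMR045C had −2.47. The copies of Ty elements in each strain are not known from the counts.

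The lowest members in ΔET were MEC1, HFA1 and DNF1. MEC1, the ATR-type checkpoint kinase, had 0 T>C reads in the 3 ΔET libraries and 44 in the 6 WT libraries, at least 12.5-fold lower at a floor of 3 reads over the group (adjusted p = 2.15e-05). Its total reads were also lower, at 10.99, 9.91 and 9.087 rpm in ΔET and 13.57 to 23.72 rpm in WT, with no overlap. HFA1 had 3 T>C reads in ΔET and 79 in WT (22.5-fold lower, 95% interval 7.42 to 111 for counting error, adjusted p = 8.87e-06). DNF1, a phospholipid flippase, had 0, 0.244 and 0.138 T>C rpm in ΔET and 2.86, 2.67, 2.39, 1.6, 3.86 and 2.01 in WT, a log2 change of −4.14 ± 0.59 (SE, adjusted p = 3.73e-06), with no overlap.

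SPT6 had 4.63, 11.4 and 5.85 T>C rpm in ΔET, against 23.6 to 48.8 in WT (−2.25 ± 0.38, adjusted p = 1.94e-05). REA1 had 2.09, 3.41 and 4.2 in ΔET, against 12.3 to 23.8 in WT (−2.36 ± 0.35, adjusted p = 5.34e-06), and MLP2 2.18, 2.76 and 3.17, against 14 to 28.2 in WT (−2.73, adjusted p = 1.74e-06). DYN1 had a log2 change of −1.60 (adjusted p = 0.0023). In SPT6, REA1 and MLP2 every ΔET library lay below every WT library, of A to C as of D to F.

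Of 10 ABC transporters 6 were lower in ΔET, against 78.7% of all genes, and their median lay 1.01 above that of all genes, at −0.82 with library totals and at 0.09 with the size factors. PDR5 had 18.6, 20.8 and 22.9 T>C rpm in ΔET and 16.3, 18, 19.4, 30.9, 35.1 and 29.2 in WT (−0.25, adjusted p = 0.462, and −0.61 with adjusted p = 0.00267 against WT D to F alone), SNQ2 had 10.9, 14.1 and 16.8 in ΔET (−0.07, adjusted p = 0.829), and BPT1 had 1.36, 2.03 and 1.24 in ΔET, against 18.7, 17.1, 20.3, 7.66, 7.73 and 5.36 in WT (−3.05, adjusted p = 4.91e-06, with −3.59 against WT A to C and −2.15 against WT D to F). FAS1 had 3.91, 5.28 and 5.23 in ΔET and 8.14, 5.34, 3.42, 7.82, 9.75 and 8.31 in WT (−0.55, adjusted p = 0.123, and −0.83 with adjusted p = 0.00138 against WT D to F alone). Of 4 fatty acid genes 1 was lower, 0 of 2 nitrogen genes, 7 of 8 RNA processing genes and 9 of 10 glucan, polarity and cytoskeleton genes. The other role lists were lower in every member tested.

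The members with the highest change in ΔET were the intron frames AI3 and AI2 and their host COX1, and 0 of them passed. AI3 had 0.545, 0.0812 and 1.65 T>C rpm in ΔET and 0.151, 1.75, 0.684, 0.319, 0.368 and 0.402 in WT (0.24, adjusted p = 0.741). COX1 had 3.27, 1.62 and 3.3 in ΔET and 1.36, 4.73, 2.17, 1.6, 2.02 and 2.41 in WT (0.17, adjusted p = 0.689). AI2 had a log2 change of 0.20 (adjusted p = 0.79). RDN37-2 had 43.1, 54 and 54.7 in ΔET and 96.8, 86, 56.5, 128, 120 and 97.2 in WT (−0.94, adjusted p = 0.0148, which passed in 8 of 9 fits that each left out a library).

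In the point mutant of the ET domain most nuclear genes were lower than in WT, and 7 of the 8 mitochondrial regions were higher. In mET(4) against WT on IAA, 108 of 162 long genes were lower and 7 higher (112 and 8 before adjustment), against a background of 67% lower and 0.997% higher. The lower ones were 103 nuclear genes, 3 Ty frames and 2 ribosomal copies, and the 7 higher ones were all mitochondrial regions. The median change was −1.32 for nuclear, −0.63 for Ty (0.19 with the size factors), 1.27 for mitochondrial and −1.13 for ribosomal members (0.18 with totals of T>C reads), against −1.35 for all genes. The mitochondrial median lay 2.62 above that of all genes, and with the size factors 7 mitochondrial regions were also higher, while 4 nuclear genes were lower and 1 higher (2.89% and 2.03% of all genes). Against WT A to C, which share the high part of RPL41A with mET(4), 96 genes were lower and 4 higher (49.5% and 1.66% of all genes) with a mitochondrial median of 0.96, and against WT D to F 119 and 9 (74.2% and 2.73%) with 1.96. Against the DMSO libraries of mET(4) itself, the mitochondrial median of log2 IAA over DMSO was −0.82, with 6 of 8 regions negative, so the higher levels were seen against WT, a comparison of strains, and not against its own DMSO libraries.

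BI4 had 1.77, 4.17 and 3.01 T>C rpm in mET(4) and 0.301, 1.75, 0.797, 0.638, 0.184 and 0.536 in WT, a log2 change of 1.97 ± 0.49 (SE, adjusted p = 0.00284). Its host COB had 1.77, 4.58 and 3.11 in mET(4) and 0.452, 1.75, 0.911, 0.638, 0.184 and 0.536 in WT (1.96, adjusted p = 0.00246), and nearly all reads of BI4 are also reads of COB. AI3 had 1.06, 2.29 and 1.97 in mET(4) (1.41, adjusted p = 0.0309), a call that was lost against WT A to C (adjusted p = 0.131). 21S_RRNA had 9.69, 24.6 and 19.1 in mET(4) and 4.07, 12.9, 9.57, 4.63, 6.25 and 6.43 in WT (1.26, adjusted p = 0.00465). WT replicate B was the highest WT library in each of these regions. In WT on IAA only 0.0819% of the reads of 21S_RRNA and 0.125% of those of COX1 were T>C reads. With shares this low and no unlabeled library, T>C reads that arise without labeling cannot be told apart from new RNA in the mitochondrial regions.

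The lowest members in mET(4) were KOG1, HFA1 and MON2. KOG1, the Raptor-type subunit of TOR complex 1, had 1 T>C read in mET(4) and 52 in WT (30.0-fold lower, 95% interval 5.15 to 1206 for counting error, adjusted p = 0.00144). HFA1 had 0.236, 0.404 and 0.104 T>C rpm in mET(4) and 2.41, 1.75, 0.911, 2.23, 2.02 and 1.74 in WT (−2.86, adjusted p = 0.00122), with no overlap. MON2, which works in traffic between endosomes and the Golgi, had 0.236, 0.538 and 0 in mET(4) and 1.81, 0.925, 1.02, 2.87, 2.21 and 2.28 in WT (−2.83).

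SPT6 had 14.3, 20.5 and 19 T>C rpm in mET(4) (−0.95, adjusted p = 0.0134), REA1 6.73, 7.67 and 6.64 (−1.25, adjusted p = 0.00268), and MLP2 6.5, 7.81 and 5.71 (−1.44). These 3 genes lay below all WT libraries. PDR12 had 2.83, 2.42 and 2.59 in mET(4), against 4.33 to 14.5 in WT (−1.61, adjusted p = 0.00217). The ABC transporters had 3 of 10 lower, with a median of −0.13 that was 0.70 with the size factors and 1.22 above all genes, and SNQ2 had 16.1, 16.7 and 15.6 in mET(4) and 12.3 to 15.7 in WT (0.14, adjusted p = 0.635). Against 67% of all genes lower, replication genes were lower in 7 of 7, vesicle genes in 9 of 9 and genes of the kinase list in 7 of 8. Chromatin genes were lower in 6 of 7, RNA processing genes in 6 of 8 and glucan, polarity and cytoskeleton genes in 8 of 10.

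With both bromodomains deleted, the shares of long genes that were lower (20.4%) and higher (3.09%) were near those of all genes. The few higher ones were mostly ABC transporters. In ΔBD1/2 against WT on IAA, 33 of 162 long genes were lower and 5 higher (55 and 5 before adjustment), against a background of 19.4% lower and 3.81% higher. The lower ones were 30 nuclear genes and 3 Ty frames, and the 5 higher ones were nuclear. The median change was −0.65 for nuclear, −0.93 for Ty, 0.16 for mitochondrial and −0.28 for ribosomal members (0.11 with the size factors), against −0.60 for all genes. Against WT A to C 42 were lower and 6 higher (23.2% and 9.71% of all genes), and against WT D to F 52 and 4 (33.6% and 3.95%). With the size factors 7 nuclear genes were lower and 5 higher (4.27% and 6.04% of all genes).

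The higher genes were SNQ2, YCF1, MET5, PDR5 and YOR1, of which 4 are ABC transporters and MET5 is a subunit of sulfite reductase. SNQ2 had 74.3, 59 and 55.9 T>C rpm in ΔBD1/2 and 15.7, 13.3, 12.3, 15.6, 15.4 and 15.4 in WT, a log2 change of 2.11 ± 0.27 (SE, adjusted p = 1.17e-05) or 4.31-fold. Its total rpm were 356.8, 302.1 and 287.6 in ΔBD1/2 and 118, 107, 112, 141, 157 and 165 in WT. YCF1 had 21.7, 17 and 11.8 in ΔBD1/2 and 5.58, 6.68, 3.99, 6.22, 5.33 and 4.42 in WT (1.64 ± 0.29, adjusted p = 0.000612). In both genes all ΔBD1/2 libraries lay above all WT libraries.

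PDR5 had 56.8, 50.2 and 46.5 T>C rpm in ΔBD1/2 and 16.3 to 35.1 in WT (1.04 ± 0.30, adjusted p = 0.0165), and YOR1, a pump for oligomycin and other drugs, had 9.6, 8.34 and 9.85 in ΔBD1/2 and 3.77, 6.17, 3.19, 5.26, 5.33 and 4.29 in WT (0.99, adjusted p = 0.0185). MET5 had 3.96, 4.48 and 3.09 in ΔBD1/2 and 1.66, 1.75, 1.02, 1.28, 2.21 and 2.81 in WT (1.10, adjusted p = 0.034). These calls passed in 6, 6 and 4 of 9 fits that each left out a library. Against WT A to C and WT D to F, the change was 1.51 and 0.69 for PDR5, 1.06 and 0.91 for YOR1, and 1.37 and 0.84 for MET5, whose call was lost against D to F (adjusted p = 0.0585). Of the 5 transporters with a PDRE, SNQ2, PDR5 and YOR1 rose, while PDR15 (0.23) and PDR10 (−0.32) did not pass, and neither did PDR12 (−0.59), which has no match. YCF1 rose without a match in its 600 bases. As a list, the ABC transporters had 2 lower and 4 higher of 10, against 19.4% and 3.81% of all genes, with a median 0.60 above all genes.

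SNQ2 was also high in these strains without IAA. In ΔBD1/2 on DMSO it had 78.1, 76.8 and 67.4 T>C rpm, against 20.3, 16.5, 15.8, 21.9, 24.1 and 16.4 in WT on DMSO. Over the 18 libraries of ΔBD1, ΔBD2 and ΔBD1/2 in both treatments it had 45.8 to 95.9 (median 57.4), and over the 126 libraries of the other strains 6.02 to 34.7 (median 18.9). The 2 sets did not overlap. PDR5 had 43.8 to 82.4 (median 56.6) in the 18 libraries and 9.36 to 53.5 (median 24.8) in the 126, YOR1 had 5.41 to 12.3 (median 8.30) and 0.991 to 11.6 (median 5.38), and YCF1 had 11.8 to 26.6 and 0.881 to 13.4 (median 6.28), so these 3 sets overlapped. This comparison was chosen after the values were seen and was not tested. The library numbers of ΔBD1, ΔBD2 and ΔBD1/2 form an unbroken run that holds no other strain and no WT library. The deletions and that run of libraries therefore cannot be told apart.

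The lowest members in ΔBD1/2 were TSC11, YNL054W-B and YOR192C-B. TSC11 had 0, 0.618 and 0.441 T>C rpm in ΔBD1/2 and 2.11, 4.32, 2.17, 1.75, 2.39 and 1.07 in WT (−2.56 ± 0.63, adjusted p = 0.00634). YNL054W-B had 5.42, 4.79 and 5 in ΔBD1/2 and 62.4, 49.2, 33.6, 12.4, 8.83 and 8.98 in WT (−2.53, adjusted p = 0.00329), with a change of −3.25 against WT A to C and −0.99 against WT D to F. In WT this frame was higher in A to C than in D to F, without overlap. YOR192C-B had 0.417, 0.463 and 0.147 in ΔBD1/2 and 2.56, 1.03, 0.911, 1.92, 1.66 and 1.34 in WT (−2.15, adjusted p = 0.0171).

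Against 19.4% of all genes lower, RNA processing genes were lower in 4 of 8, chromatin genes in 3 of 7, vesicle genes in 3 of 9 and replication genes in 2 of 7. CDC39 and THO2 are in both the RNA processing and the chromatin list. These small counts were not tested against that share. Glucan, polarity and cytoskeleton genes were lower in 2 of 10 and pore genes in 2 of 4. SPT6 had 15.7, 9.88 and 13.2 T>C rpm in ΔBD1/2 (−1.42, adjusted p = 0.00481) and REA1 10.2, 4.79 and 7.94 (−1.13, adjusted p = 0.0165), all below the WT libraries. BPT1 had 1.46, 4.02 and 3.09, against 17.1 to 20.3 in WT A to C and 5.36 to 7.73 in WT D to F (−2.14, adjusted p = 0.00233), with a change of −2.66 against A to C and −1.21 against D to F. Of the vacuolar paralogs, BPT1 was thus lower and YCF1 (1.62 against A to C and 1.65 against D to F) higher than in WT. NUM1, a cortical anchor of dynein, had a log2 change of −1.72 (adjusted p = 0.00224). FAS1 (0.13, adjusted p = 0.803) and RDN37-2 (−0.29) did not pass.

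**Figure D4:**
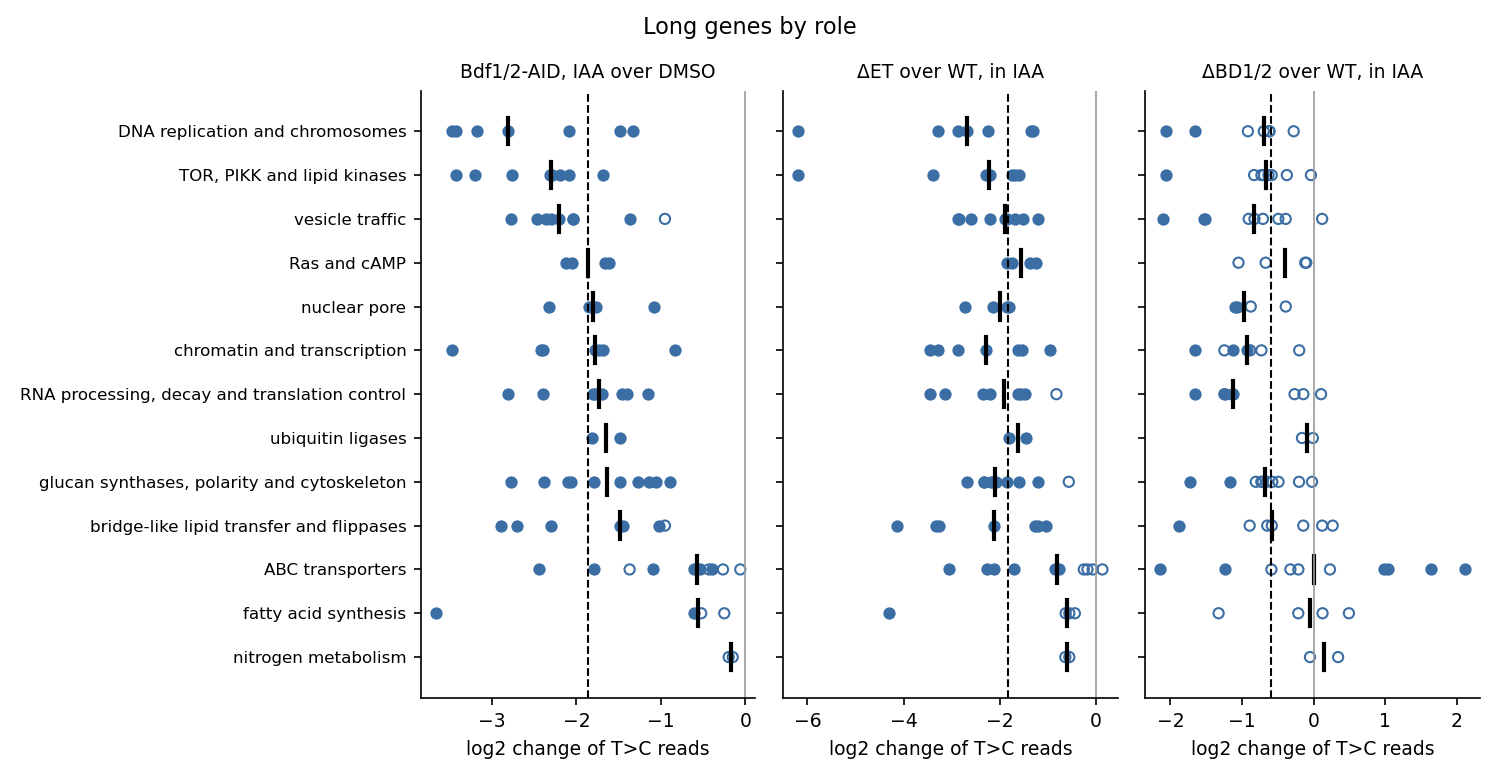
Log2 change in T>C rpm of the members of 13 role lists, in Bdf1/2-AID on IAA against DMSO and in ΔET and ΔBD1/2 against WT on IAA. Points are genes, filled where the adjusted p was under 0.05, black bars are list medians, dashed lines are the medians of all 5014 genes (−1.86, −1.82 and −0.60), and the value of MEC1 in ΔET is a fitted one for a gene with 0 T>C reads there. The ABC transporters spread furthest, with SNQ2 at 2.11 and BPT1 at −2.14 in ΔBD1/2.

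With both bromodomains mutated, few long genes passed. In mBD1/2 against WT on IAA, 0 of 162 long genes were lower and 2 higher by edgeR (22 and 9 before adjustment, and 1 and 5 by DESeq2), against a background of 0.439% lower and 0.239% higher. The 2 higher ones were the intron frames AI4 (1.72, adjusted p = 0.0448) and AI5_ALPHA (1.77 ± 0.39, adjusted p = 0.0448) of COX1, which share reads. AI5_ALPHA had 5.28, 4.99 and 3.12 T>C rpm in mBD1/2 and 1.05, 2.77, 1.14, 0.638, 0.736 and 1.07 in WT, with no overlap, and the call passed in 2 of 9 fits that each left out a library. AI2 had a log2 change of 2.03 (adjusted p = 0.0572) and AI3 of 1.99 (adjusted p = 0.0587).

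The median change in mBD1/2 was −0.40 for the nuclear genes, which is 0.13 with the size factors, and −0.52 for all genes. The mitochondrial median lay 2.20 above that of all genes, against WT A to F together. SPT6 had 35.5, 37.9 and 33 T>C rpm in mBD1/2 (0.03, adjusted p = 0.945), REA1 13.1, 12.4 and 11.4 (−0.44, adjusted p = 0.325) and SNQ2 18.7, 18.6 and 12.1 (0.17, adjusted p = 0.686). The lowest members did not pass, RIF1 with −1.59 (adjusted p = 0.0617), YBR012W-B with −1.52 (adjusted p = 0.0904) and BCK1, a kinase of the cell wall integrity pathway, with −1.49 (adjusted p = 0.101). Against WT A to C, which share the high part of RPL41A with mBD1/2, 8 genes were lower and 5 higher (6.1% and 1.87% of all genes). Against WT D to F 26 were lower and 11 higher (31.3% and 5.01%). Against the DMSO libraries of mBD1/2 itself, the mitochondrial median of log2 IAA over DMSO was −0.0163.

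Variants of the phosphorylation sites were compared in DMSO, where the tagged Bdf1 and Bdf2 are present as well. Against Bdf1/2-AID on DMSO, 129 of 162 long genes were lower in ΔCPS, 105 in mNPS/CPS and 118 in ΔNPS/CPS, against backgrounds of 76.3%, 62.8% and 68.3%. By class, ΔCPS had 115 nuclear genes, 9 Ty frames, 3 mitochondrial regions and 2 ribosomal copies lower, mNPS/CPS had 95, 7, 2 and 1, and ΔNPS/CPS had 109, 7, 0 and 2. The median change of the nuclear genes was −1.27 in ΔCPS, −1.25 in mNPS/CPS and −1.23 in ΔNPS/CPS, against −1.20, −1.28 and −1.27 for all genes. These 3 comparisons share the same control libraries.

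FAS1 fell in all 3 of these variants. It had 2.36, 3.83 and 3.43 T>C rpm in ΔCPS (−1.67, adjusted p = 1.99e-12), 2.71, 4.01 and 2.26 in mNPS/CPS (−1.77, adjusted p = 0.00116) and 3.04, 3.6 and 2.25 in ΔNPS/CPS (−1.78, adjusted p = 7.91e-09), against 9.55, 10.5 and 10.7 in Bdf1/2-AID. ACC1 had a log2 change of −1.77 in ΔNPS/CPS. The pumps fell too, with SNQ2 at 8.45, 9.76 and 10.2 in ΔCPS (−1.43) and PDR5 at 17, 15.4 and 14.3 (−1.05), against 24.1 to 26.8 and 28.7 to 35.5 in Bdf1/2-AID. In FAS1, SNQ2 and PDR5 these variants lay below all control libraries.

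SPT6 had 9.13, 10.4 and 11.8 T>C rpm in ΔCPS (−1.29 ± 0.16, adjusted p = 1.02e-13), 7.93, 16.1 and 7.1 in mNPS/CPS (−1.30, adjusted p = 0.00536) and 10.8, 14.6 and 10.9 in ΔNPS/CPS (−1.09, adjusted p = 4.6e-07). REA1 had 11.8, 11.2 and 7.22 in ΔCPS (−0.41, adjusted p = 0.0342), 5.72, 14.5 and 5.98 in mNPS/CPS (−0.58, adjusted p = 0.18) and 6.75, 5.82 and 8.31 in ΔNPS/CPS (−0.92). In mNPS/CPS replicate B stood apart in both genes, and leaving out single libraries moved the count of lower long genes between 40 and 142, and the share of all genes that were lower between 25.3% and 86.2%. Among the lowest in ΔCPS were FAB1, a phosphatidylinositol phosphate kinase (−2.54), HFA1 (−2.53) and CYR1, the adenylate cyclase (−2.45), and HFA1 had −3.09 in ΔNPS/CPS. 21S_RRNA had 2.95, 1.91 and 3.58 in ΔCPS (−1.88, adjusted p = 3.71e-15), and RDN37-2 had 36.7, 44.2 and 45.8 (−1.20).

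Across the 23 strains the median of log2 IAA over DMSO for the long nuclear genes followed that of all genes. It was lowest in Bdf1/2-AID at −1.80 (−1.69 for all genes), then ΔET at −1.26 (−1.22), mET(4) at −1.12 (−1.01), ΔBD1/2 at −0.71 (−0.72), ΔB/BID at −0.70 (−0.65), ΔNPS/CPS at −0.70 (−0.61) and mBD1/2 at −0.68 (−0.65). WT had −0.43 (−0.36). The highest values were those of mET(1) at −0.25, ΔIDRs at −0.24 and mBD1 at −0.15. Differences between neighboring strains in this order were not tested, and each strain other than WT has 3 libraries per treatment.

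**Figure D5:**
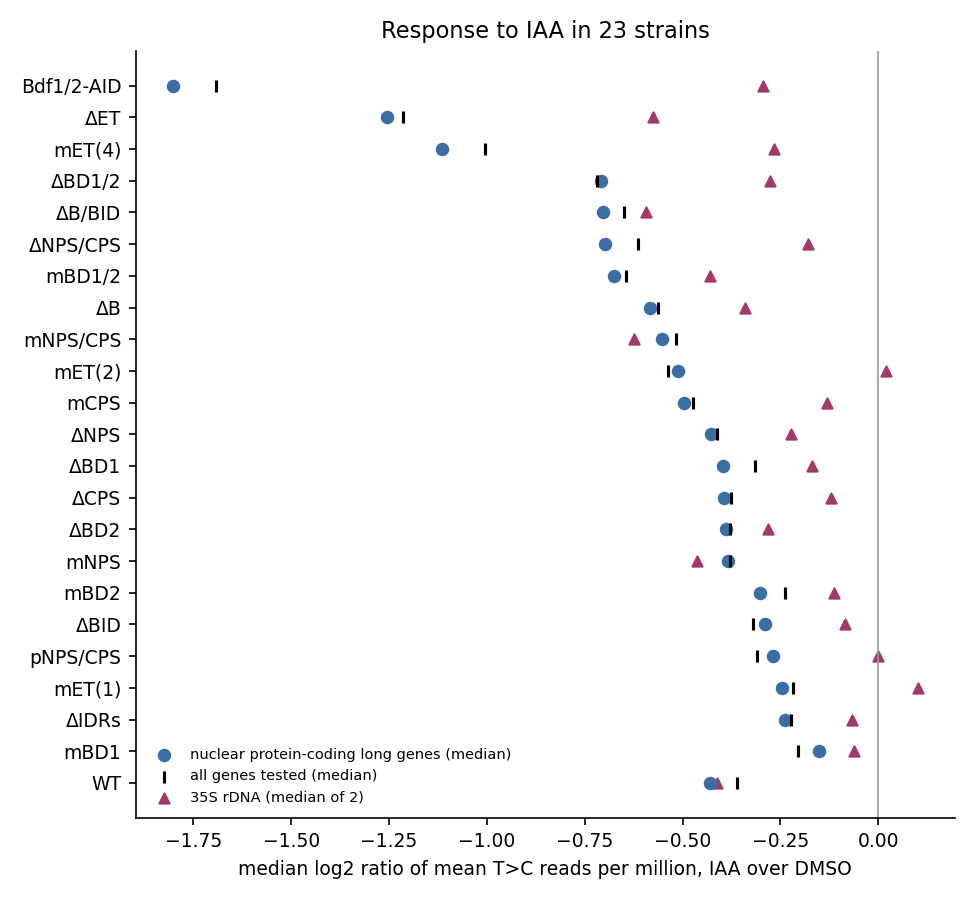
Median log2 ratio of mean T>C rpm, IAA over DMSO, in each of the 23 strains, with WT at the bottom. Dots are the 137 long nuclear genes, ticks are all 5014 genes and triangles are the 2 ribosomal copies. Bdf1/2-AID at −1.80, ΔET at −1.26 and mET(4) at −1.12 lie lowest for the nuclear genes, and dots stay close to the ticks.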

How the data were processed

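SLAM-seq libraries of 23 strains, 6 per treatment for WT and 3 for each other strain, held 4089393 to 21384793 reads. The authors trimmed reads with fastp 0.23.2 and bbduk, aligned them to build R64 and counted them per gene with SLAM-DUNK, and the deposited values are raw counts of all reads and of T>C reads (at least 2 T>C conversions) without normalization. Counted regions were 250 bases longer than the annotated gene for 6459 of 6465 genes, and 6462 identifiers matched the reference annotation, which gave gene names. Groups and letters came from the sample labels.

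Counts were tested with edgeR 4.0.16 (R 4.3.3) by quasi-likelihood F-tests, with library totals as normalization, the libraries of the groups compared, genes with a mean of at least 5 T>C reads over all libraries (5014 genes) or 20 total reads (5643 genes), and Benjamini-Hochberg adjustment over all of them. DESeq2 1.42.0, its size factors of total reads (which the methods name), TMM, T>C totals, no filter, the methods' filter (2751 genes with T>C reads in every library), leaving out single libraries and the replicate letter as a block were alternatives. The fits were tested on simulated data. Figures and sequences were made with Python 3.11.15, pandas 2.3.3, numpy 2.4.6 and matplotlib 3.10.9.

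In WT, IAA and DMSO libraries of the same letter deviated together (correlations of 0.306 to 0.599 in all 6 pairs, over the limit of 0.1), so the letters were taken to pair them. Only the letters of the labels give this pairing, and the difference between A to C and D to F is part of it. The IAA libraries A and F correlated most with a DMSO library of another letter, so the pairing is uncertain. In the other comparisons these correlations were −0.0676 to 0.108 and the letters were not taken as pairs.

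The genes, role lists and tests were chosen with earlier results of these data known. Named genes were the 3 longest members, the 3 with most T>C reads in WT DMSO, the 5 lowest and 5 highest in Bdf1/2-AID, the 3 lowest and 3 highest in the other IAA comparisons, the members of role lists with most T>C reads and up to 5 with the lowest p in the comparison of strains. Other genes were named after their values were seen.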

Additional observations from a re-analysis of the deposited data

Results flagged for a closer look

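Samples far from the others of their group were looked for by Dixon's test in the WT groups of 6 libraries, for the named members, and 8 of 100 groups tested (8%) held one, where chance gives about 1 in 20. Most are low counts, and 5 concern the same library, WT IAA replicate B. There COX1 had 4.727 T>C rpm (reads per 1000000 library reads) against 1.357 to 2.412 in the other 5 libraries, AI5_ALPHA 2.774 against 0.6382 to 1.139, AI3 1.747 against 0.1508 to 0.6836, AI2 1.644 and the Ty1 frame YPR158C-D 1.336. COX1 and its intron frames share reads, so these are not separate signals. The Ty1 frame YLR227W-B had 0.6836 in WT IAA replicate C against 1.357 to 1.656 in the others, and MLP2 28.19 in WT IAA replicate A against 14.01 to 19.13. The T>C share of the mitochondrial members was 0.09121% in WT DMSO replicate F against 0.1192% to 0.1341% in the other 5.

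In 81 of 162 members (50%) the response to IAA was more negative in Bdf1/2-AID than in WT by edgeR's test of the difference itself. This share is the same as the background of 50.2% of all genes. Those with the lowest p were ULS1 with a difference of −2.903 on the log2 scale, MLP2 with −1.983, TEL1 with −3.101, USO1 with −2.527 and SPA2 with −2.013. With DESeq2's size factors 0 members passed.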

How the results depend on the processing

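The counts of calls rest on the scaling, as no external standard was used. With size factors that DESeq2 computed from total reads, long genes were lower and higher in Bdf1/2-AID on IAA in 65 and 19 (median log2 change −0.73), in ΔET in 76 and 4 (−0.94), in mET(4) 4 were lower (−0.39), in ΔBD1/2 8 were lower (−0.30), in mBD1/2 5 were higher (0.16), and for the difference between Bdf1/2-AID and WT 0 were lower (−0.33), while the median in ΔNPS/CPS was −1.485 and total reads had 25 lower and 99 higher (0.36). With TMM the same counts were 77 and 17 (−0.84) in Bdf1/2-AID, 81 and 2 (−1.03) in ΔET, 6 lower (−0.45) in mET(4), 12 lower (−0.34) in ΔBD1/2, 5 higher (0.12) in mBD1/2, and 35 and 87 (0.25) for total reads. With totals of T>C reads they were 11 and 35 (−0.135) in Bdf1/2-AID, 23 and 21 (−0.145) in ΔET, 0 lower and 18 higher (0.00736) in mET(4), 5 lower (−0.12) in ΔBD1/2, 7 higher (0.10) in mBD1/2, 0 lower and 14 higher (−0.0123) for the difference, and a median of −0.0434 in WT. Of all genes, T>C totals gave 8.72% lower and 17.5% higher in Bdf1/2-AID, 9.17% and 15% in ΔET, 1.08% and 5.6% in mET(4), 3.77% and 8.14% in ΔBD1/2, 0.0598% and 0.977% in mBD1/2, and 1.08% and 4.15% for the difference. TMM gave 42.9% and 7.72% in Bdf1/2-AID, 42.4% and 4.77% in ΔET, 4.39% and 2.03% in mET(4), 4.95% and 5.6% in ΔBD1/2, 0.0199% and 0.698% in mBD1/2, and 34.4% and 31.8% for total reads. The size factors gave 1801 lower (8.8% higher) in Bdf1/2-AID, 1904 and 262 in ΔET, 145 and 102 in mET(4), 214 and 303 in ΔBD1/2, 1 and 39 in mBD1/2, 24 and 15 for the difference, and 1505 and 1979 of 5643 for total reads. The cause of these differences was not tested.

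The methods' filter, which leaves 106 members, gave 88 lower in ΔET, 4 higher in mET(4) and 1 higher in mBD1/2. Of all genes it gave 76.7%, 1.02% and 0.327%. In mBD1/2 DESeq2's Wald test gave 1 lower and 5 higher (3.97% and 0.638% of all genes), and no filter 5 higher (0.369%). Against WT A to C alone there were 4 higher in mET(4) (1.66% of all genes) and 8 lower and 5 higher in mBD1/2 (6.1% and 1.87%). Against WT D to F alone there were 52 lower in ΔBD1/2 (33.6%) and 26 lower and 11 higher in mBD1/2 (31.3% and 5.01%). AI3, AI2 and COX1 in ΔET turned to −0.211, −0.243 and −0.0491 against WT A to C, and over fits without single libraries AI3 ran between −1.06 (without ΔET replicate C) and 0.949 and AI2 between −1.02 and 0.86. In Bdf1/2-AID, YDR261C-D ran between −0.091 (without IAA replicate B) and 0.717, and YLR227W-B between −0.0306 (without DMSO replicate C; also below 0 without IAA replicate A) and 0.414.

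With the replicate letter as a block, WT had 53 lower and 1 higher (23% and 0.0399% of all genes). The median in ΔET was −1.73, AI3 and AI2 there were −0.27 and −0.30, mET(4) had 4 higher (1.74%) and mBD1/2 8 lower (6.62%). Only the WT letters were taken as pairs. In the other comparisons the block gave 128 lower in Bdf1/2-AID (79.3% of all genes), 122 in ΔET (61.8%), 93 in mET(4) (48.5%), 43 in ΔBD1/2 (22%), 123 in ΔCPS (72.6%), 91 in mNPS/CPS (55.3%), 112 in ΔNPS/CPS (62.6%), 99 for the difference (63.6%) and 119 for total reads (75.5%).

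Leaving out single libraries gave 124 to 128 lower and 0 to 1 higher in Bdf1/2-AID (medians −1.81 to −1.73), 125 to 139 lower in ΔET (−1.96 to −1.85), 84 to 111 lower and 2 to 8 higher in mET(4) (−1.29 to −1.18), 13 to 41 lower and 2 to 5 higher in ΔBD1/2 (−0.74 to −0.53), 0 to 2 lower and 0 to 5 higher in mBD1/2 (−0.49 to −0.21), 40 to 142 lower in mNPS/CPS (−1.58 to −1.08), 114 to 124 in ΔCPS, 97 to 113 in ΔNPS/CPS, and 114 to 120 lower and 6 to 22 higher for total reads (−0.74 to −0.64). Over the same fits the share of all genes lower was 77.6% to 83.1% in Bdf1/2-AID, 69% to 81.7% in ΔET and 49.3% to 70.4% in mET(4). It was 6.48% to 22% in ΔBD1/2, 0% to 5.74% in mBD1/2 and 25.3% to 86.2% in mNPS/CPS. It was 64.1% to 74.5% in ΔCPS, 54% to 65.3% in ΔNPS/CPS and 73.2% to 76.3% for total reads. The WT median ran between −0.52 and −0.34. Fits without single libraries were not run for the difference between strains. Without genes that had reads mapping to several places in most libraries, 77 long genes were left. Their T>C share in Bdf1/2-AID was 4.18% on IAA and 9.46% on DMSO, against 4.88% and 9.18% for regions under 1000 bases. Without genes with over 1% of such reads, an alternative chosen after seeing the data, the share of long genes was 3.92% and 8.22%. It was 3.29% and 7.26% for regions of at least 6000 bases. Of 679 values over all alternatives, 581 kept their direction and side of the threshold. Genes with under about 30 T>C reads in a group are limited by counting error.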
